A study of Mus musculus with 46 samples.

Results

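The genes described here are 10 monoamine receptor genes, 6 for serotonin receptors and 4 for adrenergic receptors, of 23335 genes in the table. They were chosen by name, with earlier results of these data known: Htr1a, Htr1d, Htr2a, Htr2c, Htr3a, Htr3b, Adra1a, Adra1b, Adra2a and Adrb1. RNA was counted in 584 single fluorescent neurons from mouse frontal cortex, in 46 libraries of 7 to 16 cells, and the labels sort them into 7 types of GABAergic neuron. Levels are in CPM, counts scaled to the total of a library or, for a replicate, of all cells of an animal, and they are compared between types for 1 gene, never between genes, because no length scale was used.

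Martinotti cells came from Sst-Flp; CR-Cre; Ai65 mice (62 cells, 4 libraries, females of postnatal day 35). Interneuron-selective cells came from Vip-Flp; CR-Cre; Ai65 mice (63 cells, 4 libraries, females of day 32), and CCK basket cells from Vip-Flp; CCK-Cre; Ai65 mice (64 cells, 4 libraries, males of days 39 and 40). PV basket cells came from Pv-iresCre; Ai14 mice (127 cells, 16 libraries, both sexes, days 58 to 83). Upper-layer chandelier cells came from Nkx2.1-CreER; Ai14 mice (80 cells, 5 libraries, females of days 40 to 58), except that 1 library is labelled Ai15 and day 58 while the other 2 libraries under the same animal number are of day 40, so that 1 of the 2 replicates of this type may hold more than 1 animal. Deep-layer chandelier cells came from Nkx2.1-CreER; Ai14 mice (52 cells, 4 libraries, males of day 34). Long-projecting cells came from Sst-Flp; Nos1-Cre; Ai65 mice (136 cells, 9 libraries, males of days 28 and 29). All samples carry the statement that tamoxifen was given on embryonic day 17.5 to induce Nkx2.1-CreER. No group had an experimental treatment. A driver cross marks the cells in which the driver genes are or were active, so a type is what its cross labels.

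Serotonin from the raphe nuclei and noradrenaline from the locus coeruleus reach all of cortex and act mostly through receptors coupled to G proteins. The 5-HT1 receptors and the alpha-2 receptors couple to Gi and lower excitability, the 5-HT2 and alpha-1 receptors couple to Gq and release calcium from stores, and the beta receptors couple to Gs and raise cyclic AMP. The 5-HT3 receptor differs from these in being a cation channel opened by serotonin, built from the A subunit alone or with the B subunit. In cortex, the 5-HT3A subunit is a classical marker of interneurons born in the caudal ganglionic eminence, which include the Vip cells.

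Library totals ranged from 530927 to 4568242 counts. The animals numbered 18 in the labels (the series description mentions 4), and PV basket animals 7 and 8, and 9 and 10, were each counted as 1 sample because 8 pairs of their libraries differed by less than 2 times the sampling noise. This left 16 replicates, of which long-projecting cells had 4 and the other types 2 each. Each type was run on 1 flow cell. Martinotti and interneuron-selective cells shared a flow cell, as did upper chandelier and long-projecting cells, and within each of these pairs the flow cell does not differ. Type cannot be told apart from age between Martinotti and interneuron-selective cells, from sex and age between upper chandelier and long-projecting cells, or from flow cell, sex and age elsewhere. Of the driver genes, Calb2 (the CR driver) was at 33.7 to 196 CPM in Martinotti and 339 to 659 CPM in interneuron-selective libraries, but also at 53.6 to 378 CPM in long-projecting libraries, which do not carry that driver. Nkx2-1 was at 48.0 to 108 CPM in upper chandelier libraries, while in deep chandelier libraries it was at 15.0 to 60.2 CPM and overlapped types of other drivers. Vip was high in 2 chandelier libraries, upper chandelier library 1 at 374 CPM and deep chandelier library 4 at 1918 CPM, where the other 7 chandelier libraries were between 0 and 2.75 CPM. Interneuron-selective library 3 and long-projecting library 2 held summed oligodendrocyte markers of 3051 and 4349 CPM. Markers of excitatory neurons summed to at most 103 CPM in any library. The 16 cell barcodes were each used in 35 to 38 libraries. Within a library, cells varied 1.01 to 1.60 times as much as counting noise gives (median 1.13), so a library, not a cell, is the unit in which levels are given.

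Promoter windows from RefSeq (GRCm38.p6; 8 of 10 members matched) are shown for members that differed between types, each as the 250 bases before an annotated start, on the gene's strand. Capitals mark a GC box (GGGCGG) or a CCAAT box (CCAAT), searched on both strands. The windows are those of Adra1b and Htr2c, genes that were both highest in the Vip-driver types, and of Htr1a, which was highest elsewhere. Htr3a and Adra1a also differed between types but had no entry. How alike the windows are was not measured.

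Adra1b, upstream start (chr11:43901238-43901487, minus strand): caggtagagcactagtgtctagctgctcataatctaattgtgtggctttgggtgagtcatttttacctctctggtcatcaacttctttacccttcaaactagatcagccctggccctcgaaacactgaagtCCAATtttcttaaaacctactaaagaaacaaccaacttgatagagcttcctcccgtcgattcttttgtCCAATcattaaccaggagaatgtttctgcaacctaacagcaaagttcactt

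Adra1b, downstream start (chr11:43836490-43836739, minus strand): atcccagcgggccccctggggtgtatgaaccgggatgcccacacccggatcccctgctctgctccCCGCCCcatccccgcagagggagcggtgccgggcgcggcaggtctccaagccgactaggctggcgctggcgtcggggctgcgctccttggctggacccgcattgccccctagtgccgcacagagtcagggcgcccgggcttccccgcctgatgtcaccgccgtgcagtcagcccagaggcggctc

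Htr2c (chrX:146962263-146962512, plus strand): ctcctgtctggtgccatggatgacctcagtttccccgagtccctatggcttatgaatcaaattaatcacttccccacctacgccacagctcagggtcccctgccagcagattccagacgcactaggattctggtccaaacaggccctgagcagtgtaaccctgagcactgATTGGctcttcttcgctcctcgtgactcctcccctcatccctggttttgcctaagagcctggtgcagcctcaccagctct

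Htr1a (chr13:105443443-105443692, plus strand): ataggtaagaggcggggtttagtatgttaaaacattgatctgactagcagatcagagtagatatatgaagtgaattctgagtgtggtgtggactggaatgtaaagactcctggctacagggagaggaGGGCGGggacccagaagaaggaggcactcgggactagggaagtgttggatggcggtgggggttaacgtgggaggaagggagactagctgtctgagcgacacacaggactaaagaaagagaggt

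The Adra1b windows differed in base composition, with 41.6% G and C at the upstream start and 72.8% at the downstream start. The upstream window held 2 CCAAT boxes and no GC box, and the downstream window held 1 GC box and no CCAAT box. The Htr2c window held 1 CCAAT box and that of Htr1a 1 GC box. None of these windows held a TATA box (TATAAA), a homeodomain core (TAATTA) or a cyclic AMP response element core (TGACG). Over 32851 windows of the same length, a GC box was in 32.7%, a CCAAT box in 33.8%, TATAAA in 12.4%, TAATTA in 4.84% and TGACG in 17.8%, so the matches are of common kinds and describe letters only. Htr3a and Htr3b are neighbours on their chromosome, with 0 genes listed between them in RefSeq (GRCm38).

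Of the 10 receptors, 9 had enough counts to be tested, and 5 of these differed between the 7 types (edgeR's quasi-likelihood test, Benjamini-Hochberg adjusted p under 0.05 over all genes): Htr3a, Adra1b, Htr2c, Adra1a and Htr1a. Over all genes tested, 25.0% differed. The median adjusted p of the 9 receptors was 0.0456, beside 0.176 over the 15533 genes tested. Because the receptors were chosen with earlier results of these data known, these values describe them and test nothing. A group of receptors was highest in the Vip-driver types (Adra1b, Htr3a, Htr2c and, at a low level, Adra2a). Adra1a was highest in deep chandelier cells, followed by long-projecting cells, and lowest in Martinotti cells. Htr1a was highest in long-projecting cells, followed by Martinotti cells, and was at 3.99 CPM in deep chandelier cells. Adra1a and Htr1a were thus not alike (Pearson r = 0.089 over 16 replicates). Htr2a was highest in PV basket cells and Adrb1 in upper chandelier cells. Htr1d and Htr3b were near the floor of 3 counts in nearly all libraries.

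**Figure D1:**
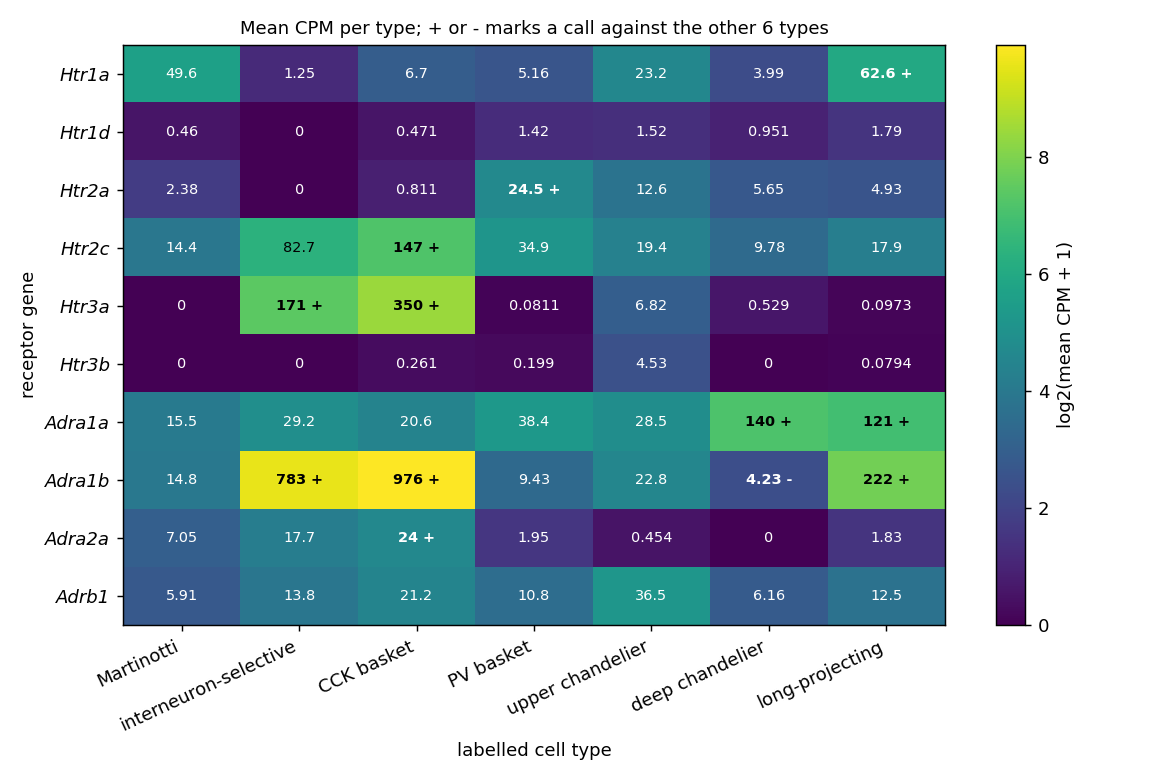
Mean CPM of the 10 receptors (rows) in the 7 labelled types (columns). Colour is log2(mean CPM + 1), and + or - marks a call above or below the log-scale mean of the other 6 types. Adra1b, Htr3a and Htr2c are brightest in interneuron-selective and CCK basket cells, Adra1a in deep chandelier and long-projecting cells.

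Adra1b encodes the alpha-1B receptor, which couples noradrenaline to Gq. In CCK basket cells, the 4 libraries held 1216, 828, 808 and 954 CPM. In interneuron-selective cells they held 578, 757, 827 and 973 CPM. These 2 types overlapped, and each of their libraries lay above every library of the other 5 types. The 9 long-projecting libraries followed, from 172 to 314 CPM with a median of 222. Every long-projecting library lay above every library of the remaining 4 types, in which the highest was 104 CPM. Type means were 976 ± 131 CPM in CCK basket cells (SD, n = 2), 783 ± 149 in interneuron-selective cells (SD, n = 2) and 222 ± 19.5 in long-projecting cells (SD, n = 4). The other type means were 22.8 CPM in upper chandelier, 14.8 in Martinotti, 9.43 in PV basket and 4.23 in deep chandelier cells, and adjacent types among these overlapped.

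Adra1b rose in CCK basket cells against the mean of the other 6 types (log2 difference 4.83 ± 0.60 SE, edgeR adjusted p = 0.000489) and in interneuron-selective cells (4.17 ± 0.60, adjusted p = 0.0011). It also rose in long-projecting cells on the log scale (2.35 ± 0.54, adjusted p = 0.00966), although their mean of 222 CPM lay below the 302 CPM mean of the other 6 types, which the Vip-driver types set. It fell in deep chandelier cells (log2 difference -4.06 ± 1.09, adjusted p = 0.0197), a call that was lost without animal 11 (0.0908) and with voom weights (0.272). Deep chandelier library 4 alone held counts of Adra1b, 22.0 CPM, and was the chandelier library with the most Vip. In Martinotti cells, library 3 held 63.4 CPM and the other 3 held 0 to 1.11 CPM. That library also had the highest summed excitatory-neuron markers, and the part of either in the result was not tested. On the flow cell that Martinotti and interneuron-selective cells shared, Adra1b was lower in Martinotti cells (log2 difference -5.72 ± 1.25, edgeR adjusted p = 0.0246). Without interneuron-selective animal 4 the adjusted p was 0.0609. Summed astrocyte markers (8 of 8 genes measured) moved with this difference, at 54.2 to 96.8 CPM in Martinotti and 303 to 369 CPM in interneuron-selective libraries. They were at 157 to 620 CPM in CCK basket libraries and 25.3 to 335 CPM in the other 4 types. Of the 8 genes, only Gfap and Gjb6 had no count in interneuron-selective cells, and only Gfap had none in Martinotti cells. The part of these markers in the results of Adra1b, Htr3a and Htr2c was not tested.

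Htr3a encodes the A subunit of the serotonin-gated channel. It was at 201, 470, 302 and 487 CPM in the 4 CCK basket libraries. It was at 190, 345, 44.9 and 93.3 CPM in the 4 interneuron-selective libraries. These 2 types overlapped, at means of 350 ± 65.7 CPM and 171 ± 149 CPM (SD, n = 2 each). No count was found in the 4 Martinotti libraries, where 3 counts would be 0.362 CPM. PV basket libraries ran from 0 to 0.571 CPM with 2 counts in all, and long-projecting libraries from 0 to 0.889 CPM with 2 counts in all. The CCK basket mean was at least 969-fold higher than in Martinotti cells, and the interneuron-selective mean at least 473-fold, each against the floor of 3 counts over the type.

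Htr3a rose in CCK basket cells (edgeR adjusted p = 6.78e-05) and in interneuron-selective cells (edgeR adjusted p = 0.000286) against the log-scale mean of the other 6 types. Martinotti cells held no count, so that mean is poorly defined and no fitted difference is given. It was lower in Martinotti than in interneuron-selective cells on their shared flow cell (edgeR adjusted p = 0.0125). Without Martinotti animal 1 or 2 this adjusted p was 0.0771 or 0.0626. In upper chandelier cells, library 1 held 46.8 CPM (45 counts) and the other 4 held none. This is the library with 374 CPM of Vip, and it was also the highest of its type in Adra1b, 104 CPM. Upper chandelier library 4 held 45.5 CPM of Adra1b with no count of Vip. Htr3a was called higher in upper chandelier than in long-projecting cells (edgeR adjusted p = 0.0485). Without the 2 chandelier libraries that held Vip, the direction turned and the adjusted p was 0.744, so that call rests on library 1. In deep chandelier cells, 5 counts of Htr3a came from library 4 (2.75 CPM), the other library with Vip.

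**Figure D2:**
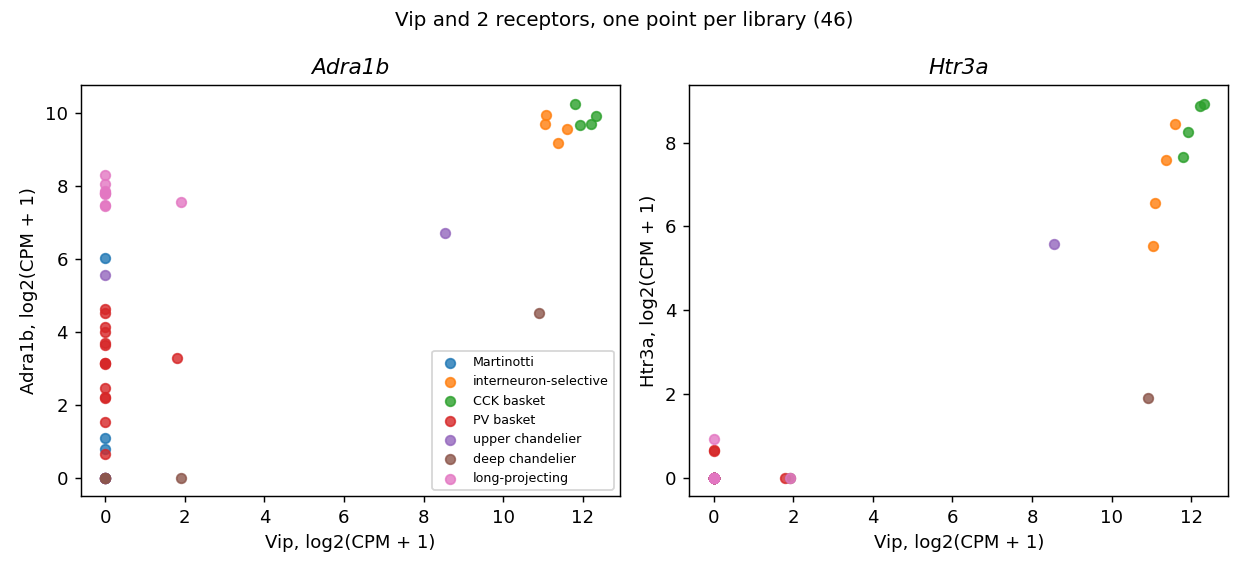
Adra1b (left) and Htr3a (right) against Vip in the 46 libraries, all as log2(CPM + 1) and coloured by labelled type. The 8 libraries of the Vip-driver types lie at the upper right, 2 chandelier libraries hold Vip and lie apart from their type, and the long-projecting libraries hold Adra1b with at most 2.77 CPM of Vip.

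Htr2c encodes the 5-HT2C receptor, coupled to Gq. It held 116, 136, 178 and 164 CPM in the CCK basket libraries. It held 86.6, 109, 72.3 and 58.5 CPM in the interneuron-selective libraries. All 4 CCK basket libraries lay above all others of the series, and interneuron-selective libraries overlapped those of PV basket cells, which ran from 6.53 to 61.5 CPM. Type means were 147 ± 33.4 CPM in CCK basket cells and 82.7 ± 22.9 in interneuron-selective cells (SD, n = 2 each), then 34.9 in PV basket, 19.4 in upper chandelier, 17.9 in long-projecting, 14.4 in Martinotti and 9.78 in deep chandelier cells. Counts of Htr2c were found in all 46 libraries. It rose in CCK basket cells (log2 difference 2.79 ± 0.43, edgeR adjusted p = 0.0018). The difference in interneuron-selective cells was 1.50 ± 0.47 and did not pass (edgeR adjusted p = 0.0602).

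Adra2a encodes the alpha-2A receptor, coupled to Gi. It held 0.254, 4.11, 13.3 and 77.6 CPM in the CCK basket libraries. It held 37.7, 1.49, 17.4 and 18.7 CPM in the interneuron-selective libraries and no count in deep chandelier cells. It was called higher in CCK basket cells (edgeR adjusted p = 0.0438), but this call passed in 6 of 16 fits that left out a replicate, and without the animal of libraries 3 and 4 the adjusted p was 0.957. The call was lost with DESeq2 (adjusted p = 0.0594) and with voom weights (0.490). Deep chandelier cells held no count, so the log-scale mean that CCK basket cells were set against is poorly defined. The joint test did not pass (edgeR adjusted p = 0.0804). It passed in 4 of 9 alternative fits and in 3 of 16 that left out a replicate. Of those 4, only DESeq2 (adjusted p = 0.0134) kept the replicates. The others were the library fits, which count libraries of the same animal as separate samples, and the 18 animals, which split the merged PV basket pairs.

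In CCK basket cells 4 of 9 receptors tested were called, all higher (Adra1b, Htr3a, Htr2c and Adra2a), beside 6.30% of all genes. In interneuron-selective cells 2 were called, both higher, beside 10.0%. Between these 2 types 0 receptors were called by edgeR, beside 1.35% of all genes. An unadjusted p under 0.05 was found for 0, and DESeq2 called 0. Fitted log2 differences of interneuron-selective minus CCK basket cells were -0.57 ± 1.00 for Adra1b, -1.33 ± 1.17 for Htr3a and -1.11 ± 0.70 for Htr2c, so differences of this size were not resolved with 2 replicates a type. Between Martinotti and interneuron-selective cells 2 were called, both lower in Martinotti cells, beside 3.09%.

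**Figure D3:**
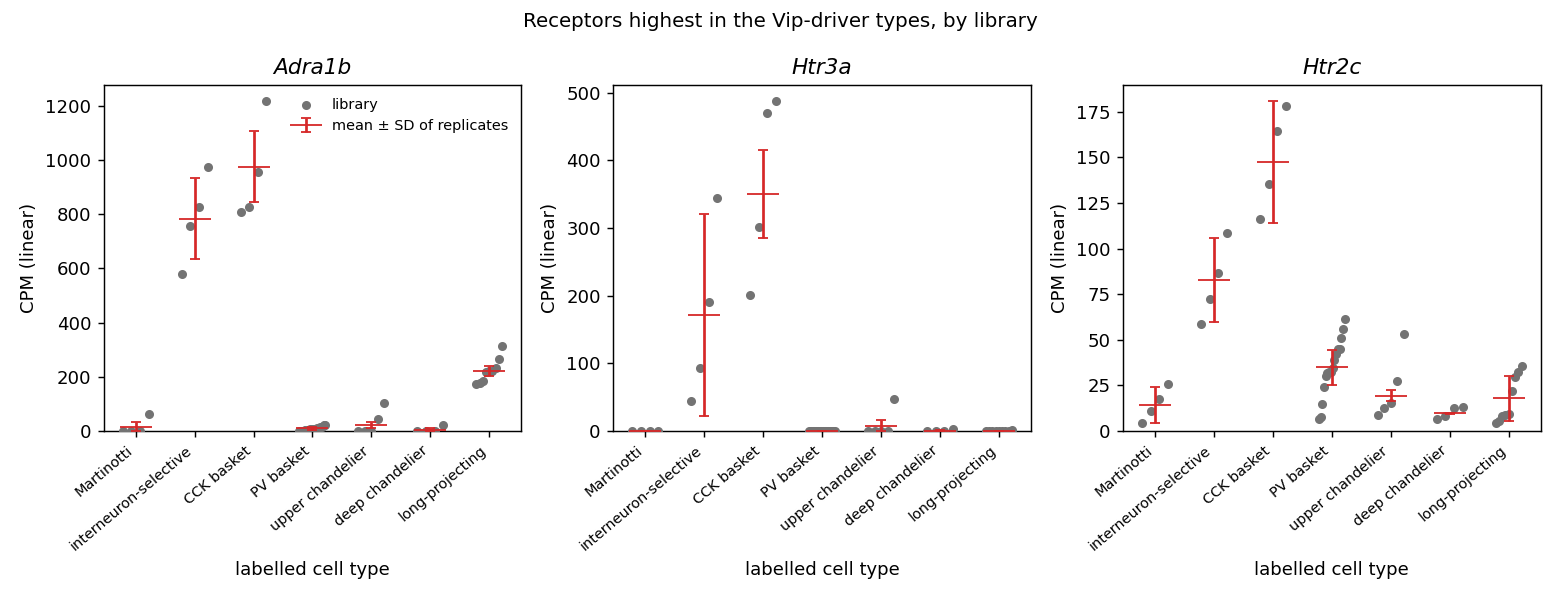
CPM of Adra1b, Htr3a and Htr2c on linear axes in each type; grey points are libraries, and red lines and bars are the mean and SD of replicates, cut at 0. The interneuron-selective and CCK basket points stand above nearly all others, and long-projecting cells form a middle level for Adra1b alone.

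Adra1a encodes the alpha-1A receptor, also coupled to Gq. It held 2.86, 310, 114 and 154 CPM in the 4 deep chandelier libraries. Long-projecting libraries ran from 47.5 to 212 CPM with a median of 107. Library 1 of the deep chandelier cells was thus far below the other 3, and it also held 0 CPM of Pvalb, where the other 3 held 165 to 553 CPM. Type means were 140 ± 15.1 CPM in deep chandelier cells (SD, n = 2) and 121 ± 48.1 in long-projecting cells (SD, n = 4). The small SD of the first comes from summing a low and a high library in animal 11. The other types followed from 38.4 CPM in PV basket cells to 15.5 in Martinotti cells, and all adjacent types overlapped. In interneuron-selective cells, library 4 held 119 CPM and the other 3 held 1.83 to 10.4 CPM.

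Adra1a rose in deep chandelier cells (log2 difference 2.34 ± 0.51, edgeR adjusted p = 0.00641) and in long-projecting cells (1.94 ± 0.42, adjusted p = 0.00681). The deep chandelier call was lost without animal 11 and with voom weights (adjusted p = 0.0709). It was also lost with libraries and a block by library number (edgeR adjusted p = 0.0607). The long-projecting call was lost without animal 16 (edgeR adjusted p = 0.0567). Deep chandelier cells held 4.92 times the mean of upper chandelier cells, but this difference did not pass (log2 difference of upper minus deep -2.60 ± 0.84, edgeR adjusted p = 0.1). Adra1a was lower in Martinotti than in long-projecting cells, the types that share the Sst driver (log2 difference -3.10 ± 0.81, edgeR adjusted p = 0.0487). That call sits at the threshold and was lost in 10 of 16 fits that left out a replicate, with adjusted p up to 0.251. Adra1b in the same comparison had a log2 difference of -4.16 ± 1.12 and did not pass (edgeR adjusted p = 0.0531).

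Htr1a encodes the 5-HT1A receptor, which couples to Gi and opens potassium channels. Its 9 long-projecting libraries ran from 34.5 to 104 CPM with a median of 58.2. The 4 Martinotti libraries held 79.2, 9.63, 33.0 and 77.3 CPM. The 5 upper chandelier libraries held 34.3, 22.7, 18.5, 45.5 and 1.27 CPM. These 3 types overlapped. In interneuron-selective cells 3 counts were found in all, in 1 of 4 libraries, and the CCK basket counts all came from library 4 (26.1 CPM). Type means were 62.6 ± 13.8 CPM in long-projecting cells (SD, n = 4), 49.6 ± 10.8 in Martinotti cells and 23.2 ± 4.08 in upper chandelier cells (SD, n = 2 each), and 1.25 to 6.70 CPM in the other 4 types.

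Htr1a rose in long-projecting cells (log2 difference 3.16 ± 0.72, edgeR adjusted p = 0.00949), and the call held in all 16 fits that left out a replicate. In CPM, the long-projecting mean was 4.18 times the mean of the other 6 types. In Martinotti cells the log2 difference was 2.60 ± 0.87 and did not pass (edgeR adjusted p = 0.1). Both differences are against a log-scale mean that includes interneuron-selective cells with 3 counts in all, so the sizes are poorly defined. The joint test of Htr1a sat close to the threshold (edgeR adjusted p = 0.0456), and 5 of 16 fits without a replicate passed it. In Martinotti cells 0 receptors were called by edgeR against the other 6 types, beside 5.60% of all genes. At an unadjusted p under 0.05 there were 5, and DESeq2 called 1, with no share of all genes given for either. In long-projecting cells 3 were called, all higher, beside 13.1%. In deep chandelier cells 2 were called, Adra1a higher and Adra1b lower, beside 19.1%. Between Martinotti and long-projecting cells 1 was called, beside 3.91%.

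Htr2a encodes the 5-HT2A receptor, coupled to Gq. PV basket libraries ran from 4.03 to 43.2 CPM with a median of 22.4, and all 16 held counts. Upper chandelier libraries held 18.7, 0, 36.0, 0 and 26.0 CPM. Deep chandelier library 2 held 23.0 CPM and the other 3 held 0 to 0.344 CPM, and interneuron-selective cells held no count. The PV basket mean of 24.5 ± 4.51 CPM (SD, n = 2) was 5.58 times the mean of the other 6 types. Htr2a was called higher there (edgeR adjusted p = 0.0332), against the log-scale mean of those types. That mean is poorly defined where a type holds no count, so the fold is not the size of the call. Htr2a did not pass the joint test (edgeR adjusted p = 0.0531). It passed that test in 6 of 9 alternative fits, with adjusted p from 0.000441 to 0.122 over the 9, and in 4 of 16 fits that left out a replicate. Among those 6, the library fits (edgeR adjusted p = 0.000441 and 0.0154) count libraries of the same animal as separate samples. The fit of 18 animals (0.0102) splits the merged PV basket pairs. DESeq2 (0.00374), no filter (0.0421) and voom weights (0.0468) kept the replicates. The PV basket call was lost without the 2 chandelier libraries that held Vip (adjusted p = 0.0704) and passed in 8 of 16 fits that left out a replicate, with adjusted p up to 0.248. In PV basket cells 1 receptor was called, beside 3.89% of all genes.

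Adrb1 encodes the beta-1 receptor, coupled to Gs. It held 29.1, 53.4, 36.0, 12.0 and 33.0 CPM in the upper chandelier libraries. Its type means ran from 36.5 ± 13.9 CPM there (SD, n = 2) to 5.91 in Martinotti cells, and all adjacent types overlapped. The log2 difference in upper chandelier cells was 1.65 ± 0.59 and did not pass (edgeR adjusted p = 0.231), nor did the joint test (edgeR adjusted p = 0.228). In upper chandelier cells 0 receptors were called by edgeR, beside 1.91% of all genes. At an unadjusted p under 0.05 there were 2, and DESeq2 called 0, with no share of all genes given for either. Between upper and deep chandelier cells 0 were called by edgeR, beside 2.83%. There, 2 had an unadjusted p under 0.05 and DESeq2 called 1, again with no share of all genes given. Between upper chandelier and long-projecting cells 1 was called, the Htr3a value above, beside 4.08%.

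**Figure D4:**
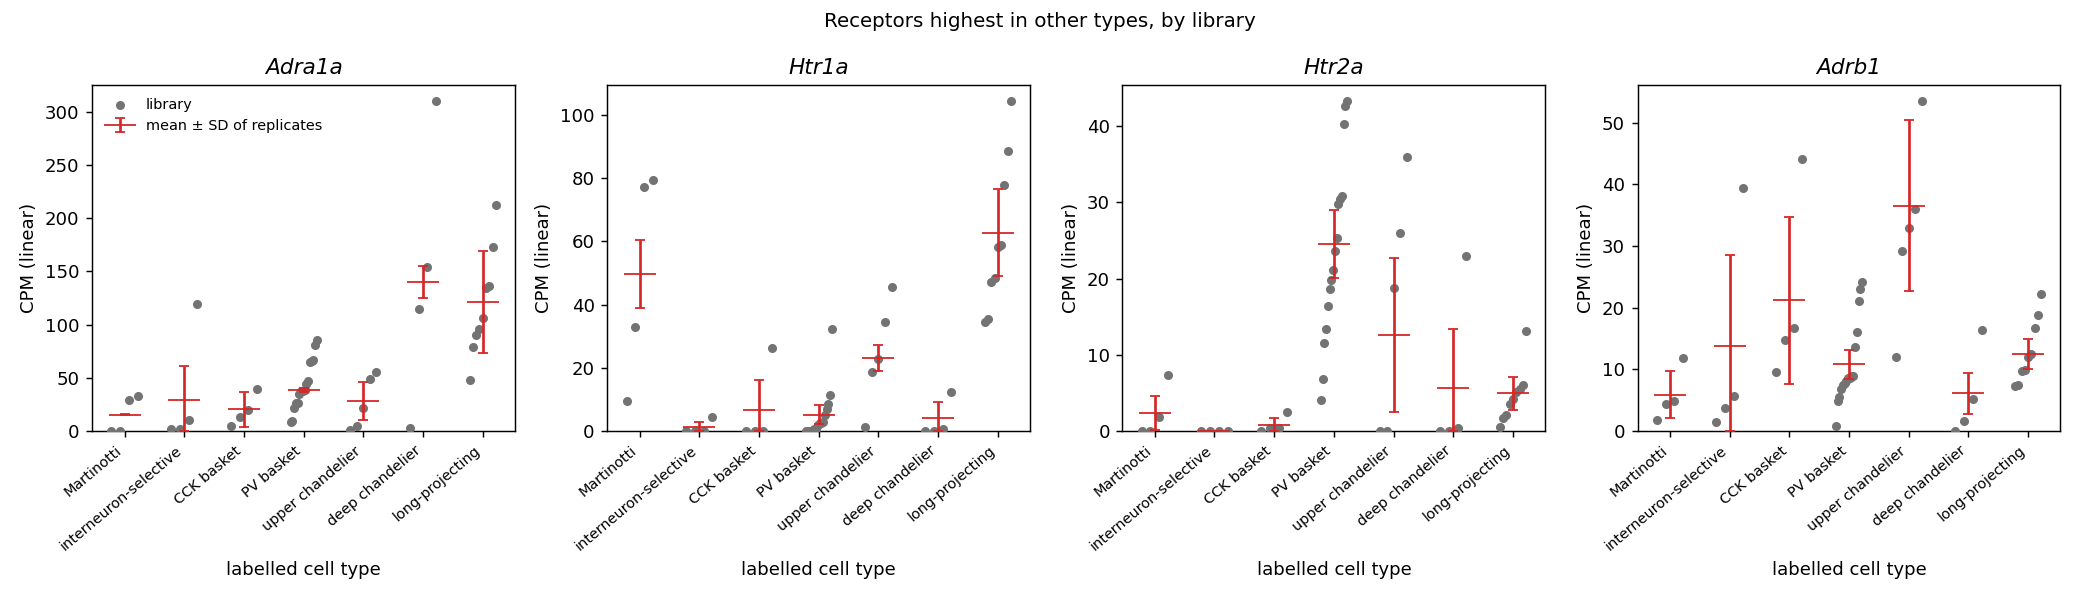
CPM of Adra1a, Htr1a, Htr2a and Adrb1 on linear axes in each type; grey points are libraries, and red lines and bars are the mean and SD of replicates, cut at 0. Libraries of a type spread widely, as in Adra1a of deep chandelier cells from 2.86 to 310 CPM.

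Htr1d, for the 5-HT1D receptor, had type means of 0 to 1.79 CPM, and its joint test did not pass (edgeR adjusted p = 0.582). Its highest library was long-projecting library 2 at 10.1 CPM, the library with the highest oligodendrocyte markers. Whether those cells contributed was not tested. Htr3b, for the B subunit of the 5-HT3 receptor, was too low to be tested. Its highest value, 30.2 CPM, was in upper chandelier library 1, and all others were at most 1.49 CPM. The 4 CCK basket libraries together held 3 counts of Htr3b.

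Across the 16 replicates, the genes most like Htr3a in log2(CPM + 1) were Serpina12 (r = 0.992), Cxcl14 (r = 0.987) and Prox1 (r = 0.972), of 9885 genes compared. Those most like Adra1b were Kcnt2 (r = 0.936), Scml4 (r = 0.934) and Dkk3 (r = 0.918), and those most like Htr2c were Serpine2 (r = 0.911), Accn4 (r = 0.893) and Ap1s2 (r = 0.890). For Htr1a they were Fndc1 (r = 0.932), Pafah1b2 (r = 0.901) and Mboat7 (r = 0.888), and for Adra1a Apex1 (r = 0.886), Ppap2a (r = 0.836) and Pak1 (r = 0.830). These values describe 16 replicates that share types and flow cells. Among the receptors, Htr3a and Htr2c were most alike (r = 0.839), and Adra1a and Adra1b were not alike (r = -0.135).

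Of 8 other serotonin receptor genes 6 were tested and 1 differed between types: Htr6, a Gs-coupled receptor, at 25.0 CPM in interneuron-selective and at most 2.09 CPM in other types (edgeR adjusted p = 0.0239). The median adjusted p of the list was 0.0994, and 25.0% of all genes tested differed. Against the other 6 types, 2 genes of this list were called higher in CCK basket and 1 in interneuron-selective cells. In either direction, 6.30% and 10.0% of all genes were called in these types. Htr1b had no count in any library. Of 5 other adrenergic receptor genes 3 were tested and 0 differed in the joint test of edgeR, with a median adjusted p of 0.225. Against the other 6 types, 1 was called higher in Martinotti and 1 in CCK basket cells, beside 5.60% and 6.30% of all genes in either direction. Adra2c came closest (edgeR adjusted p = 0.056), at 10.9 CPM in Martinotti and 9.15 CPM in CCK basket cells.

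Downstream of the receptors, 6 of 10 Gq effector genes tested differed between types (median adjusted p 0.0185), beside 25.0% of all genes. Itpr1, a calcium release channel, was at 459 CPM in upper chandelier, 322 in PV basket and 314 in deep chandelier cells, and at most 50.6 CPM in the other 4. Prkca, a protein kinase C, was at 527 CPM in deep chandelier cells and 65.2 CPM in long-projecting cells. Plcb1, the phospholipase that Gq activates, was at 1446 CPM in long-projecting and 305 CPM in upper chandelier cells. Of 8 Gi effector genes tested 6 differed (median adjusted p 0.0171), among them Kcnj3, a potassium channel subunit opened by Gi-coupled receptors, at 122 CPM in PV basket, 11.8 in Martinotti and 6.66 in long-projecting cells.

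Of 16 Gs effector genes tested 9 differed (median adjusted p 0.0311). Adcy2, an adenylyl cyclase, was at 544 CPM in Martinotti and 12.4 CPM in PV basket cells. Of 7 kinases, arrestins and partners 4 differed (median adjusted p 0.024). Mpdz, a scaffold that binds the 5-HT2C receptor, was at 1008 CPM in deep chandelier, 282 in upper chandelier, 170 in CCK basket and 29.4 CPM in Martinotti cells. S100a10, a partner of several serotonin receptors, was at 260 CPM in long-projecting cells, with no other type above 6.99 CPM. Of 11 genes of monoamine synthesis, transport and breakdown 2 differed (median adjusted p 0.193), the low-affinity transporters Slc29a4 and Slc22a3, at 25.9 and 16.2 CPM in long-projecting cells. Against the other 6 types, 2 genes of this last list were called higher in long-projecting cells. In deep chandelier cells 2 were called higher and 2 lower. In either direction, 13.1% and 19.1% of all genes were called in these types. Across all genes tested, 25.0% differed and the median adjusted p was 0.176.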

How the data were processed

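RNA of single neurons was amplified in 2 rounds and sequenced in pooled libraries, per the labels' protocols. Alignment used Bowtie 0.12.7 and the mm9 build, per the submitters' processing notes. Values are expected counts as the authors deposited them, and all values of the 10 receptors are whole within 1e-06. The sources used here do not say whether reads or tags were counted, and floors cover counting error only. The labels do not say that libraries of an animal are separate samples, so counts were summed per animal, with 2 pairs of PV basket animals merged. Rounded sums entered edgeR 4.0.16 under R 4.3.3 (TMM scaling, filterByExpr by type, quasi-likelihood test, Benjamini-Hochberg adjustment over 15533 genes, threshold 0.05), after a test on simulated data. Residual degrees of freedom were 9. Contrasts set each type against the log-scale mean of the other 6, and 5 pairs were compared directly. Where a type has no count of a gene, that log-scale mean is poorly defined. Fitted log2 differences are printed only where every type involved has counts; elsewhere levels or folds are given, and a fold against a type with no count uses 3 counts over the type. DESeq2 1.42.0 and limma 3.58.1 gave alternatives. Similar genes were the 3 with the highest Pearson r of log2(CPM + 1), among tested genes with a type mean of at least 20 CPM and a usual symbol. Lists name at most 4 genes, by smallest joint adjusted p, and Adra2c and the genes at 0 were named after their values were seen. Members and lists were chosen with earlier results of these data known. Columns of no sample numbered 0.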

Additional observations from a re-analysis of the deposited data

Results flagged for a closer look

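Of 48 groups of 4 to 9 libraries with over 3 counts of a receptor, 15 had a library whose gap to its nearest neighbour was past Dixon's 95% limit. For normally distributed values that limit flags about 1 in 20 groups. These CPM hold many zeros, and a lone library with counts among zeros always passes it, so no excess over chance is shown. All 15 were the highest of their type.

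Upper chandelier library 1, which held 374 CPM of Vip, stood apart in Htr3a at 46.8 CPM (others 0) and in Htr3b at 30.2 CPM (others up to 1.09). Deep chandelier library 4, with 1918 CPM of Vip, stood apart in Adra1b at 22.0 CPM and in Htr3a at 2.75 CPM, with no count of either in the other 3 libraries.

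Deep chandelier library 3 held Htr1a at 12.4 CPM and library 2 held Htr2a at 23.0 CPM. CCK basket library 4 held Htr1a at 26.1 CPM and Adra2a at 77.6 CPM. Martinotti library 3 held Adra1b at 63.4 CPM and library 1 held Adra2a at 30.3 CPM. Interneuron-selective library 4 held Adra1a at 119 CPM, and library 3, with 3051 CPM of oligodendrocyte markers, held Adrb1 at 39.4 CPM. Long-projecting library 2, with 4349 CPM of those markers, held Htr1d at 10.1 CPM, and library 6 held Htr2a at 13.1 CPM. Upper chandelier library 4 held Htr1d at 6.39 CPM (8 counts). The part of the markers in these values was not tested.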

How the results depend on the processing

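Alternatives were RLE scaling, no filter, DESeq2, the 18 labelled animals, voom weights per type, libraries with or without a replicate block, and leaving out each of 16 replicates. Fits without the 2 chandelier libraries with Vip, or the 2 libraries with oligodendrocyte markers, were added after seeing the data. The calls of Adra1b and Htr3a in both Vip-driver types, of Htr2c in CCK basket cells and of Htr1a in long-projecting cells passed in all 9 alternatives and all 16 leave-one-out fits.

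The library numbers do not pair the samples (median r of same-numbered libraries -0.00195, from -0.0536 to 0.0342, 91 pairs). With libraries and a block by library number, counts that moved by over 1.5 times were 4 in interneuron-selective and 2 in PV basket. They were 0 in Martinotti against long-projecting and 0 in upper chandelier against long-projecting. Smaller moves were to 7 in the joint test (Adra2a and Htr2a added), 4 in long-projecting and 3 in Martinotti against interneuron-selective, and deep chandelier kept 2 calls but lost Adra1a (adjusted p = 0.0607).

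Receptors called were 5 in the joint test, 0 in Martinotti, 2 in interneuron-selective, 4 in CCK basket, 1 in PV basket, 0 in upper chandelier and 2 in deep chandelier, 3 in long-projecting, 0 in interneuron-selective against CCK basket, 1 in Martinotti against long-projecting, 0 in upper chandelier against deep chandelier, 2 in Martinotti against interneuron-selective, 1 in upper chandelier against long-projecting. The counts that follow for each alternative are those that moved by over 1.5 times. Shares of all genes are not given for any alternative. The counts therefore show how calls moved and do not set the receptors apart from other genes. RLE scaling called 0 in Martinotti against long-projecting. No filter called 1 in upper chandelier. DESeq2 called 1 in Martinotti, 5 in interneuron-selective, 2 in PV basket, 4 in deep chandelier, 2 in Martinotti against long-projecting, 1 in upper chandelier against deep chandelier, 4 in Martinotti against interneuron-selective, 2 in upper chandelier against long-projecting. The 18 animals gave 4 in interneuron-selective, 2 in PV basket, 2 in Martinotti against long-projecting, 2 in upper chandelier against long-projecting. Voom weights gave 1 in Martinotti, 2 in PV basket, 0 in deep chandelier, 1 in Martinotti against interneuron-selective, 2 in upper chandelier against long-projecting. Libraries without a block gave 8 in the joint test, 2 in Martinotti, 5 in interneuron-selective, 2 in PV basket, 2 in upper chandelier and 4 in deep chandelier, then 2 in Martinotti against long-projecting, 1 in upper chandelier against deep chandelier, 4 in Martinotti against interneuron-selective, 2 in upper chandelier against long-projecting. Without the chandelier libraries with Vip there were 0 in PV basket, 0 in Martinotti against long-projecting. Without the libraries with oligodendrocyte markers there were 0 in Martinotti against long-projecting, 0 in upper chandelier against long-projecting. Smaller moves were to 7 in the joint test with no filter (Htr2a and Htr3b added), DESeq2 or 18 animals, to 4 in it without the Vip or the oligodendrocyte libraries, and to 3 in CCK basket with DESeq2 or voom. With 18 animals there were 3 in deep chandelier and 3 in Martinotti against interneuron-selective, and in long-projecting there were 4 with voom or without a block. Leaving out each replicate in turn, counts ran from 4 to 6 in the joint test, 0 to 1 in Martinotti, 2 to 3 in interneuron-selective, 3 to 4 in CCK basket, 0 to 2 in PV basket, 0 to 2 in upper chandelier and also 0 to 2 in deep chandelier, 2 to 3 in long-projecting, 0 to 0 in interneuron-selective against CCK basket, 0 to 2 in Martinotti against long-projecting, 0 to 1 in upper chandelier against deep chandelier, 1 to 3 in Martinotti against interneuron-selective, 0 to 2 in upper chandelier against long-projecting.

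Htr3a between upper chandelier and long-projecting cells changed direction without animal 13 (adjusted p = 0.888) and without the chandelier libraries with Vip (adjusted p = 0.744), and its adjusted p ran from 0.0148 to 0.888 when each replicate was left out. Of 70 type levels, 5 moved by over 1 SD when libraries were averaged in place of replicates. The causes of these changes were not tested. With n = 2 in 6 of 7 types, differences near the threshold are not resolved, and the interneuron-selective floor of 0.968 CPM is the highest of any type.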
